A study of Mus musculus with 9 samples.

Results

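The genes of glycolysis and of the response to low oxygen were followed by RNA sequencing in mouse macrophages that were grown in culture from bone marrow. The set holds 33 of the 22001 genes in the count table and was taken by gene symbol. By role it comprises 2 glucose transporters, 3 hexokinases, 7 enzymes of the middle steps, 2 enzymes that set the level of fructose 2,6-bisphosphate, 6 enzymes of the energy-yielding steps, 5 genes that decide the fate of pyruvate and lactate, 3 genes of the oxygen sensor and 5 further hypoxia-induced genes. All 33 genes passed the filter on low counts, which left 11469 genes for testing. The cells came from C57BL6 mice, and each of the 3 groups had 3 libraries, taken after 6 h. The first group was labelled with Pam3CSK4 at 100 µg/ml and 3SL at 100 µl/ml (library codes A2plus, B2plus and C2plus), the second with Pam3CSK4 at 100 µg/ml alone (D1, D2 and D3), and the third as untreated, with PBS (A2, B2 and C2). Pam3CSK4 is a synthetic lipopeptide that activates Toll-like receptors. 3SL, read as the milk sugar 3'-sialyllactose of the series title, has a dose given as a volume without an amount. The labels of the first group disagree. Those that give the doses name Pam3CSK4 and 3SL. Its titles, its count columns and the column names in its descriptions read Pamc4 and 3SL, and its treatment tag reads Pamc4-CSL. In the second group the titles, columns and tag read Pamc3, so whether both groups had the same lipopeptide rests on the labels with the doses alone.

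Glycolysis splits glucose into pyruvate in the cytosol. Glucose enters through transporters, is trapped by a hexokinase, is committed by phosphofructokinase and yields ATP in the later steps, and lactate dehydrogenase and the monocarboxylate transporters then make and export lactate. Several steps have more than a single gene, and these isoenzymes differ in their kinetics and their regulation. HIF-1 alpha is the oxygen-regulated subunit of a transcription factor that binds DNA at the hypoxia response element and drives most glycolytic genes. With oxygen present, prolyl hydroxylases mark the protein for degradation. In macrophages, Toll-like receptor signals are also known to raise HIF-1 alpha and glycolysis.

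Levels of Toll-like receptor response genes went against the labels and are given before the results. Il1b, the gene of interleukin-1 beta, averaged 8130 ± 565 CPM (counts per 1000000 of the library size after TMM scaling) in the 3SL-labelled libraries, 6.23 ± 1.68 CPM in the Pam3CSK4-labelled libraries and 10152 ± 457 CPM in the untreated-labelled libraries (SD, n = 3 each). Tnf, which encodes tumour necrosis factor, averaged 1266 ± 58.1, 18.4 ± 0.67 and 1702 ± 45.9 CPM in the same order of groups. Both cytokines were thus far lower in the libraries labelled Pam3CSK4 than in those labelled untreated. Il6 averaged 192 ± 24.3, 0.065 ± 0.059 and 358 ± 26.1 CPM in the same order. Nfkbia averaged 1071 ± 28.7, 45.0 ± 0.79 and 1114 ± 29.4 CPM, and Tlr2 989 ± 20.2, 52.5 ± 1.80 and 1197 ± 12.3 CPM. All 5 response genes checked were called lower in the Pam3CSK4-labelled than in untreated-labelled libraries, beside 35.9% of all tested genes. All 5 were called higher in the 3SL-labelled than in Pam3CSK4-labelled libraries, beside 34.7%. Groups are therefore named by their labels throughout, and every direction below is that of the labels. Only the Pam3CSK4-labelled libraries carry the code letter D, so the treatment cannot be told apart from anything else that this letter stands for.

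Total counts ran from 7472482 to 43980309 per library. The 10 macrophage markers, Cd68, Adgre1 and Csf1r among them, were all tested and none was at 0, with summed levels of 23640 to 24277 CPM in the 3SL-labelled, 16721 to 17169 CPM in the Pam3CSK4-labelled and 24471 to 24996 CPM in the untreated-labelled libraries. Markers of other cell types were lower in sum. The 12 neutrophil and progenitor markers summed to 566 to 622, 457 to 582 and 696 to 724 CPM in these groups, with none at 0 throughout a group. The 5 dendritic markers reached at most 3.23, 2.75 and 5.07 CPM, the 7 stromal and endothelial markers at most 15.1, 5.36 and 17.7 CPM, the 9 lymphocyte markers at most 11.5, 13.4 and 12.02 CPM, and the 6 erythroid and mast cell markers at most 3.51, 5.34 and 3.86 CPM. Markers at 0 throughout a group included Ncr1 in the 3SL-labelled and the Pam3CSK4-labelled groups, Cd3e in the Pam3CSK4-labelled group and Klf1 in the untreated-labelled group. The macrophage sum moved with the results below and its part in them was not tested. Single macrophage markers went both ways. In the Pam3CSK4-labelled against untreated-labelled libraries 6 were called lower, 3 higher and 1 not, beside 35.9% and 39.0% of all tested genes. In the 3SL-labelled against Pam3CSK4-labelled libraries 6 were called higher and 4 lower, beside 34.7% and 36.8%. In such bulk samples fewer expressing cells and less RNA per cell cannot be told apart.

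Most genes of the set were low in the Pam3CSK4-labelled libraries. Against the untreated-labelled libraries, 27 of the 33 genes were lower, 3 were higher (Hk3, Pfkm and Slc16a1) and 3 were not called (Pfkfb4, Aldoc and Vegfa), by the quasi-likelihood test of edgeR at a threshold of 0.05 after Benjamini-Hochberg adjustment over all tested genes. Of all tested genes 35.9% were called lower, 39.0% higher and 75.0% either way, against 30 of the 33. Libraries of both groups did not overlap for 27 lower and 4 higher genes of the set, as for 36.5% and 39.5% of tested genes. The median log2 change of the 33 genes was -0.99, beside 0.03 over all tested genes. Among the 27 lower genes 16 were lower at least 2-fold, and 10.8% of tested genes were. None of the 3 higher genes reached a fold of 2, which 13.2% of tested genes did upward.

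Between the 3SL-labelled and the Pam3CSK4-labelled libraries, 29 of the 33 genes were higher in the 3SL-labelled, 3 were lower and Vegfa was not called. Of all tested genes 34.7% were called higher and 36.8% lower, or 71.5% either way. Without overlap were 29 higher and 3 lower genes of the set, beside 35.5% and 37.6% of tested genes. The median log2 change of the set was 0.99, beside -0.02 over all tested genes, and 16 genes were higher at least 2-fold, as were 10.5% of tested genes, and none was lower by that much, where 12.5% were. Both comparisons rest on the same Pam3CSK4-labelled libraries, so they are not independent of each other and their values are set side by side below. With library sizes alone as the scale, the median of all tested genes moved by 0.31 in the first comparison, where 6882 genes were then called higher and 2380 lower in place of 4474 and 4123. It moved by -0.27 in the second, where 2434 genes were called higher and 6393 lower in place of 3978 and 4226. On that scale the set still had 25 genes lower and 6 higher in the Pam3CSK4-labelled against untreated-labelled libraries, and 25 higher and 4 lower in the 3SL-labelled against Pam3CSK4-labelled libraries.

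**Figure D1:**
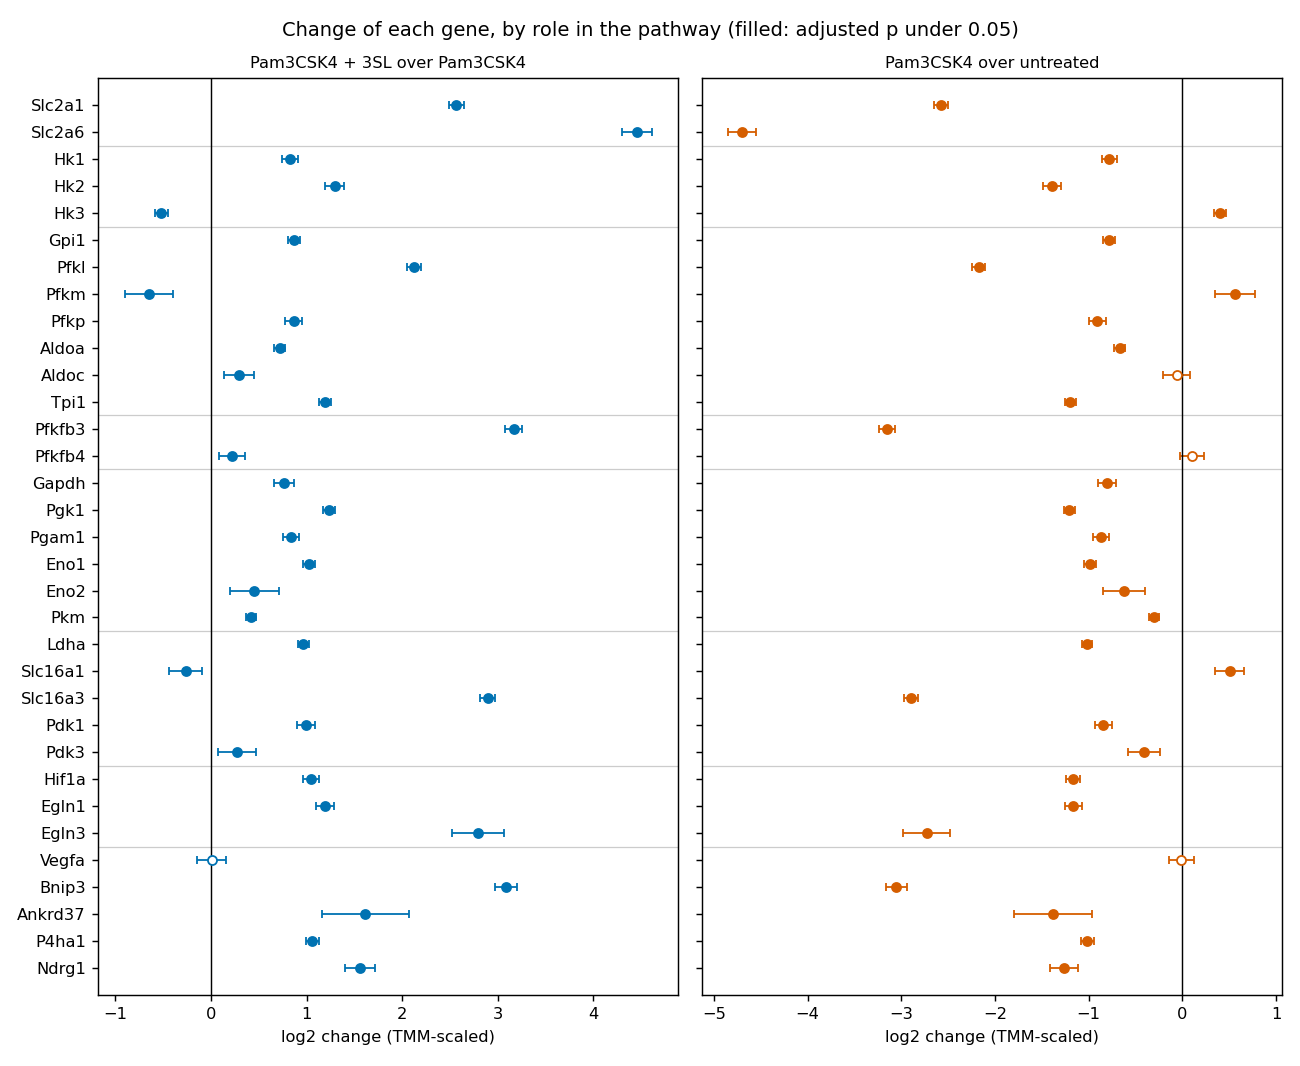
Log2 change of each of the 33 genes with its 95% interval (x axis, TMM-scaled), for the 3SL-labelled over Pam3CSK4-labelled libraries (left) and the Pam3CSK4-labelled over untreated-labelled libraries (right). Genes run down the page by role, and filled points passed the adjusted threshold of 0.05: the points lie mostly right of 0 in the left panel and left of 0 in the right panel, with Hk3, Pfkm and Slc16a1 on the other side in each panel.

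Both glucose transporters fell in the Pam3CSK4-labelled libraries, and Slc2a6 by more than Slc2a1. Slc2a1 encodes GLUT1, the main glucose carrier of activated macrophages. It stood at 345, 343 and 340 CPM in the 3SL-labelled libraries, at 58.8, 55.3 and 59.9 CPM in the Pam3CSK4-labelled libraries and at 343, 347 and 347 CPM in the untreated-labelled libraries. Slc2a6 encodes GLUT6, a carrier found on lysosomal membranes. It stood at 121, 140 and 138 CPM in the 3SL-labelled, at 5.28, 6.37 and 6.57 CPM in the Pam3CSK4-labelled and at 157, 165 and 151 CPM in the untreated-labelled libraries. For both genes every Pam3CSK4-labelled library lay below every other library. In the Pam3CSK4-labelled against untreated-labelled libraries, the log2 change was -2.58 ± 0.04 (SE) for Slc2a1 and -4.70 ± 0.08 for Slc2a6, which is 5.97-fold and 25.9-fold lower (edgeR, adjusted p = 2.89e-28 and 1.11e-27). In the 3SL-labelled against Pam3CSK4-labelled libraries it was 2.57 ± 0.04 and 4.45 ± 0.08 (edgeR, adjusted p = 6.48e-28 and 1.50e-26). Slc2a6 made up 29.8% ± 1.79 of the summed level of the 2 carriers per kilobase of exon in the 3SL-labelled libraries, 10.3% ± 1.18 in the Pam3CSK4-labelled libraries and 33.3% ± 1.01 in the untreated-labelled libraries (SD, n = 3 each).

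The 250 bases before the annotated start of both carrier genes are shown because these genes fell by the largest and the smallest amount of their step. They come from RefSeq promoter entries on build GRCm38.p6 and are printed 5′ to 3′ on the strand of the gene. Capitals mark the core letters of the hypoxia response element, ACGTG or GCGTG, or the same letters on the other strand, CACGT or CACGC.
Slc2a1, chr4:119108495-119108744, plus strand: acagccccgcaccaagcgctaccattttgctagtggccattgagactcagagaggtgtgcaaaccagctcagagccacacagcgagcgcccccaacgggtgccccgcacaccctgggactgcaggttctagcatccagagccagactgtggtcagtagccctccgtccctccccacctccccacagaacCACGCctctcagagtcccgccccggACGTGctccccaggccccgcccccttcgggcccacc
Slc2a6, chr2:27027999-27028248, minus strand: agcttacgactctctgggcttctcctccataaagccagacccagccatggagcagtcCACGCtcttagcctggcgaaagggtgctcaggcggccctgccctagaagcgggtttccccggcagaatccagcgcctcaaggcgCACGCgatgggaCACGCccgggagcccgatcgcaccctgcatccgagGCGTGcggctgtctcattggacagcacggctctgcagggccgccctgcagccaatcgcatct
Slc2a1 held 2 such matches and Slc2a6 held 4.

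Hexokinases, which phosphorylate glucose in the first step, did not move together. Hk3, an isoenzyme of myeloid cells, rose in the Pam3CSK4-labelled libraries, while Hk1 and Hk2 fell. Hk2, the inducible isoenzyme bound to mitochondria, stood at 191, 193 and 219 CPM in the 3SL-labelled, at 81.1, 79.0 and 86.7 CPM in the Pam3CSK4-labelled and at 216, 211 and 221 CPM in the untreated-labelled libraries. Hk3 stood at 311, 315 and 317 CPM in the 3SL-labelled, at 448, 460 and 445 CPM in the Pam3CSK4-labelled and at 328, 349 and 346 CPM in the untreated-labelled libraries. Thus the Pam3CSK4-labelled libraries were the lowest 3 for Hk2 and the highest 3 for Hk3. Hk1, the housekeeping isoenzyme, averaged 216 ± 8.69, 122 ± 0.79 and 209 ± 8.31 CPM in the 3SL-labelled, Pam3CSK4-labelled and untreated-labelled libraries. In the Pam3CSK4-labelled against untreated-labelled libraries the log2 change was -0.78 ± 0.04 (SE) for Hk1, -1.39 ± 0.05 for Hk2 and 0.40 ± 0.03 for Hk3, with adjusted p of 4.90e-16, 4.67e-20 and 1.32e-11 by edgeR. In the 3SL-labelled against Pam3CSK4-labelled libraries it was 0.83 ± 0.04, 1.29 ± 0.05 and -0.52 ± 0.03 (edgeR, adjusted p = 3.45e-16, 8.53e-19 and 1.32e-13).

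The make-up of the hexokinase step therefore differed between the groups. Per kilobase of exon, Hk3 took 59.2% ± 1.15 of the summed level of the 3 genes in the 3SL-labelled libraries, 81.4% ± 0.63 in the Pam3CSK4-labelled libraries and 60.4% ± 0.82 in the untreated-labelled libraries (SD, n = 3 each). Hk2 took 23.3% ± 1.21, 9.16% ± 0.51 and 23.6% ± 0.74 in the same groups. The share of Hk1 rests on its length: it was 9.48% in the Pam3CSK4-labelled libraries over all annotated exons and 15.5% over the longest transcript. The log2 ratio of Hk3 to Hk2 counts, which needs no length and no scaling, was 0.71, 0.71 and 0.53 in the 3SL-labelled libraries, 2.47, 2.54 and 2.36 in the Pam3CSK4-labelled libraries and 0.60, 0.73 and 0.64 in the untreated-labelled libraries. It was 1.80 higher in the Pam3CSK4-labelled than in untreated-labelled libraries, a 3.47-fold change of the ratio, with no overlap. An exact two-sided permutation test over libraries gave p = 0.1, the smallest value that 3 against 3 allows.

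The promoter windows of Hk2 and Hk3 are shown as those of the most strongly falling and of the rising hexokinase, with capitals as above.
Hk2, chr6:82774455-82774704, minus strand: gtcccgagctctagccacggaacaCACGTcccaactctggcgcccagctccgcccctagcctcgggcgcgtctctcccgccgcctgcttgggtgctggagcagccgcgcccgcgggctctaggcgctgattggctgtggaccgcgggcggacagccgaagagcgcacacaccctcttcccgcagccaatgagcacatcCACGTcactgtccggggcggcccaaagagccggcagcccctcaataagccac
Hk3, chr13:55021386-55021635, minus strand: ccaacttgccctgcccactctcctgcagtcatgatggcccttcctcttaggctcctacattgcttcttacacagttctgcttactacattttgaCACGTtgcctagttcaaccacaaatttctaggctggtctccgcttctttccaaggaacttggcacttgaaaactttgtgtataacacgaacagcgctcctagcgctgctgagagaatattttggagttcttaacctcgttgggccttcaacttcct
Hk2 held 2 matches and Hk3 held 1.

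**Figure D2:**
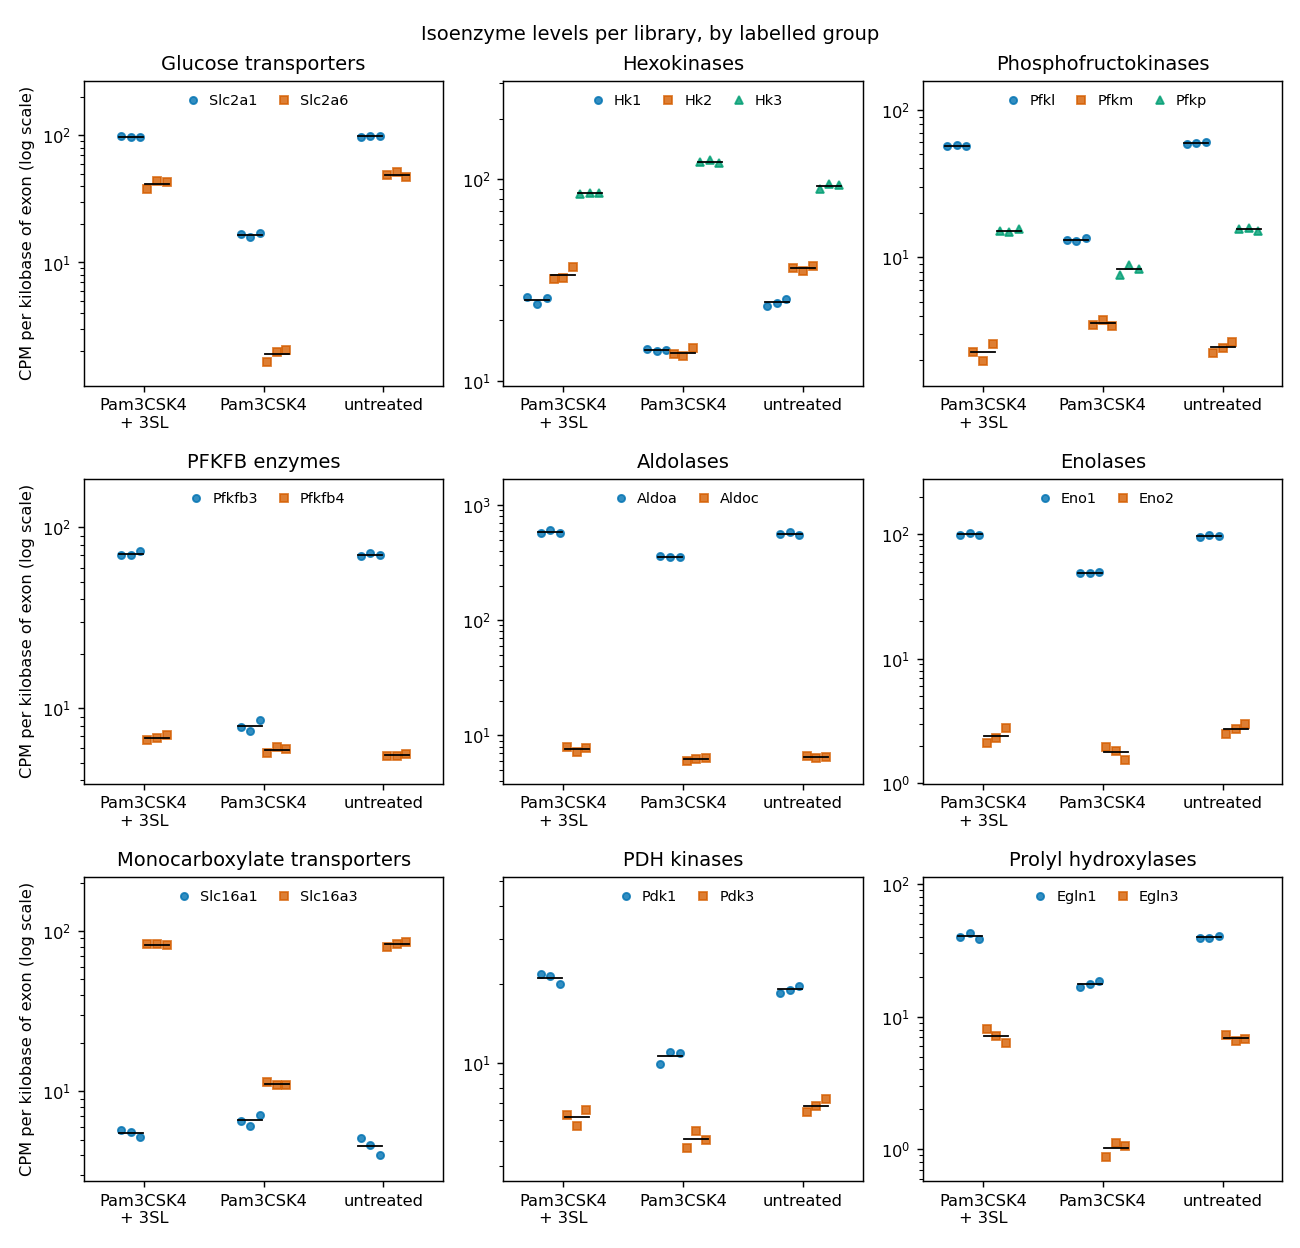
Level of each isoenzyme in CPM per kilobase of exon (y axis, log scale) in each library, for 9 steps, with the 3SL-labelled libraries left, the Pam3CSK4-labelled in the middle and the untreated-labelled right; bars are group means. In the middle column Slc2a6, Pfkfb3, Slc16a3 and Egln3 drop the furthest, while Hk3, Pfkm and Slc16a1 lie above both other groups.

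Of the 7 middle-step genes, 5 fell in the Pam3CSK4-labelled against untreated-labelled libraries, Pfkm rose and Aldoc was not called. Of all tested genes 35.9% were called lower there and 39.0% higher. Pfkl, the liver-type subunit of phosphofructokinase, the committing enzyme of the pathway, stood at 379, 387 and 379 CPM in the 3SL-labelled, at 87.4, 86.0 and 90.2 CPM in the Pam3CSK4-labelled and at 391, 398 and 401 CPM in the untreated-labelled libraries. Its log2 change was -2.17 ± 0.04 (SE) in the Pam3CSK4-labelled against untreated-labelled libraries and 2.12 ± 0.04 in the 3SL-labelled against Pam3CSK4-labelled libraries (edgeR, adjusted p = 1.93e-27 and 6.98e-27). Pfkm, the muscle-type subunit, went the other way at a low level. It stood at 7.58, 6.65 and 8.63 CPM in the 3SL-labelled, at 11.7, 12.6 and 11.5 CPM in the Pam3CSK4-labelled and at 7.53, 8.07 and 8.90 CPM in the untreated-labelled libraries. Its log2 changes were 0.57 ± 0.11 and -0.65 ± 0.13 (edgeR, adjusted p = 3.83e-05 and 5.65e-05). Pfkp, the platelet-type subunit, fell by 0.91 and rose by 0.87 on the log2 scale in the same 2 comparisons.

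Because the 3 subunits moved by different amounts, their mix differed. Per kilobase of exon, Pfkl made up 76.7% ± 0.85 of the phosphofructokinase level in the 3SL-labelled, 52.7% ± 1.93 in the Pam3CSK4-labelled and 76.8% ± 0.34 in the untreated-labelled libraries (SD, n = 3 each). Pfkp made up 20.2% ± 0.45, 33.03% ± 1.62 and 20.1% ± 0.56. Pfkm made up 3.06% ± 0.39, 14.3% ± 0.63 and 3.16% ± 0.24. Per kilobase, liver-type subunit transcripts thus led in all groups and by the smallest margin in the Pam3CSK4-labelled libraries. There the lead rests on the gene lengths: in CPM, Pfkp averaged 111 ± 8.32 and Pfkl 87.8 ± 2.14 in the Pam3CSK4-labelled libraries. The log2 ratio of Pfkp to Pfkl counts averaged -0.92 in the 3SL-labelled, 0.33 in the Pam3CSK4-labelled and -0.93 in the untreated-labelled libraries. The count ratio of Pfkm to Pfkl was 6.58-fold higher in the Pam3CSK4-labelled than in untreated-labelled libraries, without overlap (exact permutation test, two-sided, p = 0.1, the smallest possible).

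The other middle-step enzymes moved by less than Pfkl. Tpi1, triosephosphate isomerase, averaged 852 ± 27.4 CPM in the 3SL-labelled, 371 ± 1.31 CPM in the Pam3CSK4-labelled and 851 ± 17.1 CPM in the untreated-labelled libraries, a log2 change of -1.20 in the Pam3CSK4-labelled against untreated-labelled libraries. Gpi1, glucose-6-phosphate isomerase, and Aldoa, the main aldolase, changed by -0.78 and -0.67 in that comparison and by 0.87 and 0.72 in the 3SL-labelled against Pam3CSK4-labelled libraries, all called by edgeR. Aldoc, a second aldolase, averaged 24.9 ± 1.40, 20.2 ± 0.60 and 21.2 ± 0.43 CPM in the 3 groups. Its log2 change in the Pam3CSK4-labelled against untreated-labelled libraries was -0.06, with an edgeR 95% interval from -0.21 to 0.08, and turned to 0.25 with library sizes alone. In the 3SL-labelled against Pam3CSK4-labelled libraries Aldoc was higher by 0.29 (edgeR, adjusted p = 0.00201), a call lost with library sizes alone at 0.02.

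The bifunctional enzymes Pfkfb3 and Pfkfb4 make and break fructose 2,6-bisphosphate, the strongest activator of phosphofructokinase, and they parted ways. Pfkfb3, the form that favours the kinase reaction, stood at 529, 530 and 559 CPM in the 3SL-labelled, at 59.6, 56.4 and 64.8 CPM in the Pam3CSK4-labelled and at 523, 543 and 532 CPM in the untreated-labelled libraries. Pfkfb4 stood at 32.7, 33.3 and 34.8 CPM in the 3SL-labelled, at 27.5, 29.7 and 29.2 CPM in the Pam3CSK4-labelled and at 26.6, 26.7 and 27.3 CPM in the untreated-labelled libraries. Pfkfb3 was far lower in every Pam3CSK4-labelled library than elsewhere, and the 3 groups of Pfkfb4 lay close together without overlap. Pfkfb3 was 8.87-fold lower in the Pam3CSK4-labelled than in untreated-labelled libraries (log2 -3.15 ± 0.04 SE, edgeR, adjusted p = 3.10e-29) and 8.98-fold higher in 3SL-labelled than in Pam3CSK4-labelled libraries (3.17 ± 0.04, edgeR, adjusted p = 4.20e-29). Pfkfb4 had a log2 change of 0.11 ± 0.07 in the first comparison, with an edgeR adjusted p of 0.144, and of 0.22 ± 0.07 in the second, with 0.00683. With library sizes alone these became 0.42, then called, and -0.05, no longer called, so the sign of the second depends on the scaling.

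Within the pair, Pfkfb4 made up 8.81% ± 0.05 of the level per kilobase of exon in the 3SL-labelled, 42.6% ± 2.06 in the Pam3CSK4-labelled and 7.26% ± 0.16 in the untreated-labelled libraries (SD, n = 3 each). The count ratio of Pfkfb4 to Pfkfb3 was 9.48-fold higher in the Pam3CSK4-labelled than in untreated-labelled libraries and 7.67-fold lower in the 3SL-labelled than in Pam3CSK4-labelled libraries. Neither comparison had overlapping libraries (exact permutation tests, two-sided, p = 0.1 each, the smallest possible). The promoter windows of both genes are shown as those of a strongly moving and a nearly level isoenzyme. Pfkfb3 has 2 RefSeq entries, and the first-listed is printed.
Pfkfb3, chr2:11553930-11554179, minus strand: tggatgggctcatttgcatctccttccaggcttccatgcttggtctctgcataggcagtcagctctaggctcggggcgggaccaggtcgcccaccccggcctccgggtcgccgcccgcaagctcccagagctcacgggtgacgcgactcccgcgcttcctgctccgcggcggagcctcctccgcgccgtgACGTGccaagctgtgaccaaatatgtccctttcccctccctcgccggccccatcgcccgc
Pfkfb4, chr9:108991652-108991901, plus strand: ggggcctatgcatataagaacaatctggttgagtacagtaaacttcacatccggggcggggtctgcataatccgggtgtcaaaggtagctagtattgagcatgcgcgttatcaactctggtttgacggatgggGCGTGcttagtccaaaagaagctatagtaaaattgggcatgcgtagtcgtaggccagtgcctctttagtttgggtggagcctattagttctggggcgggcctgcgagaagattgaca
Each window held 1 match, and the other window of Pfkfb3 held 3, of which 2 were the strands of a single CACGTG.

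All 6 genes of the energy-yielding steps fell in the Pam3CSK4-labelled against untreated-labelled libraries, beside 35.9% of all tested genes called lower. All 6 rose in the 3SL-labelled against Pam3CSK4-labelled libraries, beside 34.7% called higher. The log2 changes of the 6 genes ran from -1.21 to -0.31 in the first comparison and from 0.42 to 1.24 in the second. Pgk1, phosphoglycerate kinase, which makes the first ATP of the pathway, averaged 591 ± 4.66 CPM in the 3SL-labelled, 251 ± 4.67 CPM in the Pam3CSK4-labelled and 578 ± 11.5 CPM in the untreated-labelled libraries. Eno1, the main enolase, averaged 538 ± 13.8, 264 ± 3.46 and 523 ± 8.73 CPM, and Pgam1, phosphoglycerate mutase, averaged 204 ± 3.30, 114 ± 3.64 and 210 ± 11.96 CPM. Pkm, the pyruvate kinase of macrophages, moved the least. It stood at 2130, 2156 and 2078 CPM in the 3SL-labelled, at 1607, 1577 and 1574 CPM in the Pam3CSK4-labelled and at 1955, 1993 and 1932 CPM in the untreated-labelled libraries. Its log2 change in the Pam3CSK4-labelled against untreated-labelled libraries was -0.31 ± 0.03 (SE), and with library sizes alone it was 0.006 and not called. Eno2, the neuronal enolase, stayed low at 11.2 ± 1.62, 8.28 ± 0.995 and 12.9 ± 1.14 CPM. Its rise in the 3SL-labelled against Pam3CSK4-labelled libraries was reduced to 0.18 and not called with library sizes alone (edgeR, adjusted p = 0.215). Gapdh, glyceraldehyde-3-phosphate dehydrogenase, averaged 115 ± 5.41, 67.7 ± 3.45 and 118 ± 5.84 CPM.

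Several genes of the set share stretches of sequence with other annotated genes, and their levels are uncertain where the counting could have split or dropped reads. Of all 50-base stretches of the transcripts of Pgk1, 53.9% also occurred in transcripts of other annotated genes. The share was 47.2% for Bnip3, 36.2% for Pgam1, 25.99% for Eno1, 25.8% for Pkm, 25.1% for Gapdh, 17.0% for Ankrd37 and 15.8% for Gpi1. Gapdh shared such stretches with 223 other genes. Its level per kilobase of exon, 28.6 CPM in the untreated-labelled libraries, was below that of its neighbours in the pathway, Tpi1 at 309.0 and Pgk1 at 257 CPM. Pfkm, Pkm and Hif1a also share exon bases with other gene models on the same strand. Whether the counting used strand is not given, so reads from opposite-strand overlaps cannot be told apart, of which the longest were 748 bases for Pfkp, 741 for Gpi1, 556 for Ndrg1, 504 for Bnip3 and 406 for Ankrd37.

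The lactate carriers held the widest split of the 12 isoenzyme pairs between the Pam3CSK4-labelled and the untreated-labelled libraries. Ldha, the lactate dehydrogenase subunit that favours lactate, averaged 1431 ± 35.7 CPM in the 3SL-labelled, 733 ± 7.31 CPM in the Pam3CSK4-labelled and 1484 ± 21.8 CPM in the untreated-labelled libraries, a log2 change of -1.02 in the Pam3CSK4-labelled against untreated-labelled libraries. Slc16a3 encodes MCT4, the lactate exporter of highly glycolytic cells. It stood at 442, 438 and 434 CPM in the 3SL-labelled, at 60.7, 58.0 and 58.2 CPM in the Pam3CSK4-labelled and at 423, 441 and 453 CPM in the untreated-labelled libraries. Slc16a1 encodes MCT1, a carrier that moves lactate in either direction. It stood at 25.4, 24.6 and 23.1 CPM in the 3SL-labelled, at 29.02, 27.1 and 31.7 CPM in the Pam3CSK4-labelled and at 22.6, 20.5 and 17.7 CPM in the untreated-labelled libraries. Thus the Pam3CSK4-labelled libraries were lowest for MCT4 and highest for MCT1, in both cases without overlap.

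Slc16a3 was 7.45-fold lower in the Pam3CSK4-labelled than in untreated-labelled libraries (log2 -2.90 ± 0.04 SE, edgeR, adjusted p = 2.26e-29) and 7.44-fold higher in 3SL-labelled than in Pam3CSK4-labelled libraries (edgeR, adjusted p = 3.90e-29). Slc16a1 was 1.42-fold higher in the first comparison (log2 0.51 ± 0.08, edgeR, adjusted p = 2.60e-06). In the second it was lower by 0.26 ± 0.09 (edgeR, adjusted p = 0.00941), a call lost without D3 at an adjusted p of 0.0557, without C2plus at 0.0516 and with all libraries thinned to equal depth at 0.0552. Slc16a1 made up 6.26% ± 0.24 of the pair's level per kilobase of exon in the 3SL-labelled, 37.3% ± 1.95 in the Pam3CSK4-labelled and 5.27% ± 0.77 in the untreated-labelled libraries. Its count ratio to Slc16a3 was 10.8-fold higher in the Pam3CSK4-labelled than in untreated-labelled libraries (exact permutation test, two-sided, p = 0.1, the smallest possible). The promoter windows of the 2 carriers are shown as those of genes that moved in opposite directions.
Slc16a3, chr11:120948817-120949066, plus strand: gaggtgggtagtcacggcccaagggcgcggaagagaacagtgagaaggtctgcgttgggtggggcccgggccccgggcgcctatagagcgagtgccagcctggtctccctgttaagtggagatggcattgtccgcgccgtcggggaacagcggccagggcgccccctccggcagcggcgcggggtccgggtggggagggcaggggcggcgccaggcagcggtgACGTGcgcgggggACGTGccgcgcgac
Slc16a1, chr3:104638414-104638663, plus strand: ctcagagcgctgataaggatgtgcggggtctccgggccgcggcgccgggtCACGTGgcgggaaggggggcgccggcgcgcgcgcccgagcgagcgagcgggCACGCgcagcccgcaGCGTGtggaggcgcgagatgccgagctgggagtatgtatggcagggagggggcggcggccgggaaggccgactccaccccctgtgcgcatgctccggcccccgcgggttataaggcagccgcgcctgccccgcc
Slc16a3 held 2 matches and Slc16a1 held 4, of which 2 were the strands of a single CACGTG, a letter string that other factors also bind.

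Pyruvate dehydrogenase kinases, which hold pyruvate back from oxidation in the mitochondria, fell by unequal amounts. Pdk1, a known HIF-1 target, averaged 164 ± 7.74 CPM in the 3SL-labelled, 82.3 ± 4.82 CPM in the Pam3CSK4-labelled and 149 ± 4.73 CPM in the untreated-labelled libraries, with log2 changes of -0.85 and 0.99 in the 2 comparisons. Pdk3 averaged 15.8 ± 1.13, 13.0 ± 0.96 and 17.5 ± 1.02 CPM. Its fall of 0.41 in the Pam3CSK4-labelled against untreated-labelled libraries (edgeR, adjusted p = 1.69e-04) was reduced to 0.10 and not called with library sizes alone. Its rise of 0.27 in the 3SL-labelled against Pam3CSK4-labelled libraries (edgeR, adjusted p = 0.0190) was not called without D1 (0.0716), without C2plus (0.0942) or after thinning (0.104), and was -0.0005 with library sizes alone.

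**Figure D3:**
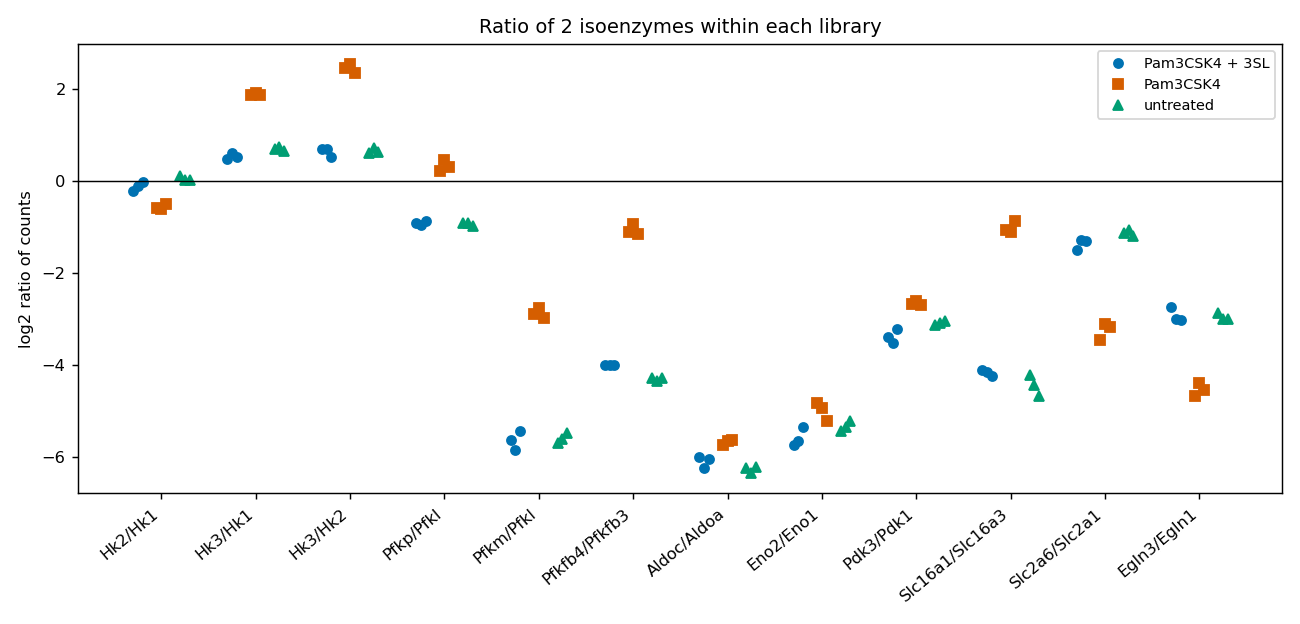
Log2 ratio of the counts of 2 isoenzymes within each library (y axis) for 12 pairs (x axis), with the 3SL-labelled libraries as circles, the Pam3CSK4-labelled as squares and the untreated-labelled as triangles. The squares stand apart in every pair: above both other groups in 9 pairs and below them for Hk2 over Hk1, Slc2a6 over Slc2a1 and Egln3 over Egln1.

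Across the 12 isoenzyme pairs, 36 permutation tests were run over the 3 comparisons. In all 24 tests that involve the Pam3CSK4-labelled libraries the groups did not overlap and p was 0.1, the smallest possible, or 0.124 after Benjamini-Hochberg adjustment over the 36 tests. Between the 3SL-labelled and the untreated-labelled libraries 5 pairs did not overlap and 7 did. How often the ratios of other gene pairs part in this way was not computed, so these counts have no background. Single genes often did: 36.5% of tested genes were lower and 39.5% higher without overlap in the Pam3CSK4-labelled against untreated-labelled libraries. In the 3SL-labelled against untreated-labelled libraries it was 12.5% and 11.4%. The direction of each reported ratio difference was the same with each library left out in turn and with 1 or 0.1 added to the counts in place of 0.5. The ratio does not depend on how library sizes are scaled.

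Transcripts of the oxygen sensor fell with most glycolytic transcripts of the set. Hif1a, which encodes HIF-1 alpha, stood at 309, 288 and 311 CPM in the 3SL-labelled, at 143, 146 and 151 CPM in the Pam3CSK4-labelled and at 334, 315 and 342 CPM in the untreated-labelled libraries. It was 2.25-fold lower in the Pam3CSK4-labelled than in untreated-labelled libraries (log2 -1.17 ± 0.04 SE, edgeR, adjusted p = 3.75e-20) and 2.06-fold higher in 3SL-labelled than in Pam3CSK4-labelled libraries (edgeR, adjusted p = 1.25e-18). Egln1 encodes PHD2, the main hydroxylase that marks HIF-1 alpha, and averaged 145 ± 7.11 CPM in the 3SL-labelled, 63.4 ± 3.68 CPM in the Pam3CSK4-labelled and 142 ± 2.48 CPM in the untreated-labelled libraries. Egln3, which encodes the hypoxia-inducible hydroxylase PHD3, stood at 21.3, 19.2 and 17.0 CPM in the 3SL-labelled, at 2.32, 2.98 and 2.83 CPM in the Pam3CSK4-labelled and at 19.2, 17.6 and 18.1 CPM in the untreated-labelled libraries. It was 6.64-fold lower in the Pam3CSK4-labelled than in untreated-labelled libraries, against 2.24-fold for Egln1. The count ratio of Egln3 to Egln1 was 2.99-fold lower, without overlap between these groups (exact permutation test, two-sided, p = 0.1, the smallest possible).

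Of the 5 further hypoxia-induced genes, 4 fell in the Pam3CSK4-labelled against untreated-labelled libraries, beside 35.9% of all tested genes called lower. In the 3SL-labelled against Pam3CSK4-labelled libraries 4 rose, beside 34.7% called higher. Bnip3, which encodes a receptor for the removal of mitochondria, stood at 185, 201 and 190 CPM in the 3SL-labelled, at 20.2, 24.3 and 22.9 CPM in the Pam3CSK4-labelled and at 182, 195 and 185 CPM in the untreated-labelled libraries, 8.30-fold lower in the Pam3CSK4-labelled than in untreated-labelled libraries (edgeR, adjusted p = 1.79e-26). P4ha1, a collagen prolyl hydroxylase subunit, and Ndrg1, a stress-response gene, changed by -1.01 and -1.26 on the log2 scale in that comparison and by 1.06 and 1.56 in the 3SL-labelled against Pam3CSK4-labelled libraries. Ankrd37 was low, at 5.60 ± 0.92 CPM in the 3SL-labelled, 1.85 ± 0.31 CPM in the Pam3CSK4-labelled and 4.76 ± 1.25 CPM in the untreated-labelled libraries, and changed by -1.38 and 1.62. Vegfa, which encodes the angiogenic factor VEGF-A and is a textbook HIF target, stood at 34.7, 31.6 and 28.2 CPM in the 3SL-labelled, at 31.2, 31.7 and 30.5 CPM in the Pam3CSK4-labelled and at 32.1, 31.2 and 30.8 CPM in the untreated-labelled libraries. These 9 values overlapped in all groups. The edgeR 95% intervals of its log2 change were -0.15 to 0.12 in the Pam3CSK4-labelled against untreated-labelled libraries and -0.14 to 0.16 in the 3SL-labelled against Pam3CSK4-labelled libraries. With library sizes alone Vegfa changed by 0.30 and -0.27, both called.

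Core letters of the hypoxia response element were common in the promoter windows of the set. RefSeq windows matched 32 of the 33 genes, all but Ndrg1, and 29 of these 32 (90.6%) had ACGTG or GCGTG on either strand in at least 1 window. Among the tested genes with a window, 5648 of 9137 (61.8%) did. By window, it was 37 of 46 (80.4%) for the set, 55.7% for all tested genes and 38.6% for all 32851 windows. Gpi1, Tpi1 and Eno2 had no match, and all 3 fell in the Pam3CSK4-labelled against untreated-labelled libraries. Hk3 and Slc16a1, which rose there, each had at least 1 match, so both members of the 4 pairs printed above hold these letters. A match describes the letters and does not show that a factor binds.

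Of the 33 genes, 7 were called between the 3SL-labelled and the untreated-labelled libraries and 26 were not. By edgeR 4 genes were higher (Pfkfb4, Ndrg1, Pdk1 and Pkm) and 3 lower (Slc2a6, Hk3 and Hif1a), and none reached a fold of 2. Of all tested genes 3.83% were called higher and 5.11% lower, or 8.94% either way, a smaller share than 7 of 33. By at least 2-fold, 0.113% were called higher and 0.061% lower. The set's median log2 change was 0.02, beside -0.00 over all tested genes, and its changes ran from -0.25 to 0.33. With library sizes alone the set had 8 genes higher and 1 lower, and all tested genes 787 higher and 406 lower in place of 439 and 586. The 95% intervals of the 26 genes not called all lay between -0.40 and 0.61 on the log2 scale, and those calls do not show that the genes were equal.

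Pfkfb4 had the largest rise of these, 1.26-fold higher in 3SL-labelled than in untreated-labelled libraries (log2 0.33 ± 0.07 SE, edgeR, adjusted p = 0.00205), from the values given above. Ndrg1 stood at 74.0, 79.9 and 72.1 CPM in the 3SL-labelled and at 56.7, 65.0 and 62.0 CPM in the untreated-labelled libraries (0.29 ± 0.07, edgeR, adjusted p = 0.00711). Slc2a6 had the largest fall (-0.25 ± 0.05, edgeR, adjusted p = 0.00145). In each of these 3 genes the groups did not overlap. Over the set this held for 8 higher and 4 lower genes, and over all tested genes for 11.4% and 12.5%. Pkm was 1.08-fold higher (edgeR, adjusted p = 0.00494) and Pdk1 1.11-fold higher (edgeR, adjusted p = 0.0381). Hk3 was 1.08-fold lower (edgeR, adjusted p = 0.0284) and Hif1a 1.09-fold lower (edgeR, adjusted p = 0.0487). Just past the threshold lay Aldoc at 0.23, Gpi1 at 0.09 and Slc16a1 at 0.24 on the log2 scale, with edgeR adjusted p of 0.0584, 0.0742 and 0.0971.

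Single libraries or the processing decided several of these small calls. Without A2 only 2 of the 33 genes were higher, since Ndrg1 (edgeR, adjusted p = 0.0504) and Pdk1 (0.161) were lost. Ndrg1 was also lost without B2plus (0.0704), and Pdk1 without B2 (0.129), A2plus (0.153) or B2plus (0.130) and with RLE size factors (0.0529). Without C2, A2plus or B2plus, or with only the 6 libraries of the 2 groups in the fit, 1 gene remained lower, since Hk3 and Hif1a were not called. Hk3 was also not called without B2 (0.169) and Hif1a not without A2 (0.156) or without any of D1, D2 and D3 (0.0526 to 0.0549). With all libraries kept, Pdk1 was also not called by DESeq2 (adjusted p = 0.101) or after thinning (edgeR, adjusted p = 0.213). Hif1a was not called by DESeq2 (adjusted p = 0.0566). With library sizes alone neither Hif1a (edgeR, adjusted p = 0.21) nor Hk3 (0.146) was called. Pfkfb4, Pkm and Slc2a6 were called under every alternative run.

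Isoenzyme pairs without overlap in this comparison were Hk2 to Hk1, Hk3 to Hk1, Pfkfb4 to Pfkfb3, Pdk3 to Pdk1 and Slc2a6 to Slc2a1. The largest difference was that of Pfkfb4 to Pfkfb3, with log2 count ratios of -4.01, -3.99 and -4.00 in the 3SL-labelled and of -4.29, -4.35 and -4.28 in the untreated-labelled libraries. The ratio was 1.23-fold higher in the 3SL-labelled libraries (exact permutation test, two-sided, p = 0.1, the smallest possible). The ratios of Pdk3 to Pdk1, Slc2a6 to Slc2a1, Hk3 to Hk1 and Hk2 to Hk1 were lower there, by 0.29, 0.23, 0.17 and 0.16 on the log2 scale.

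**Figure D4:**
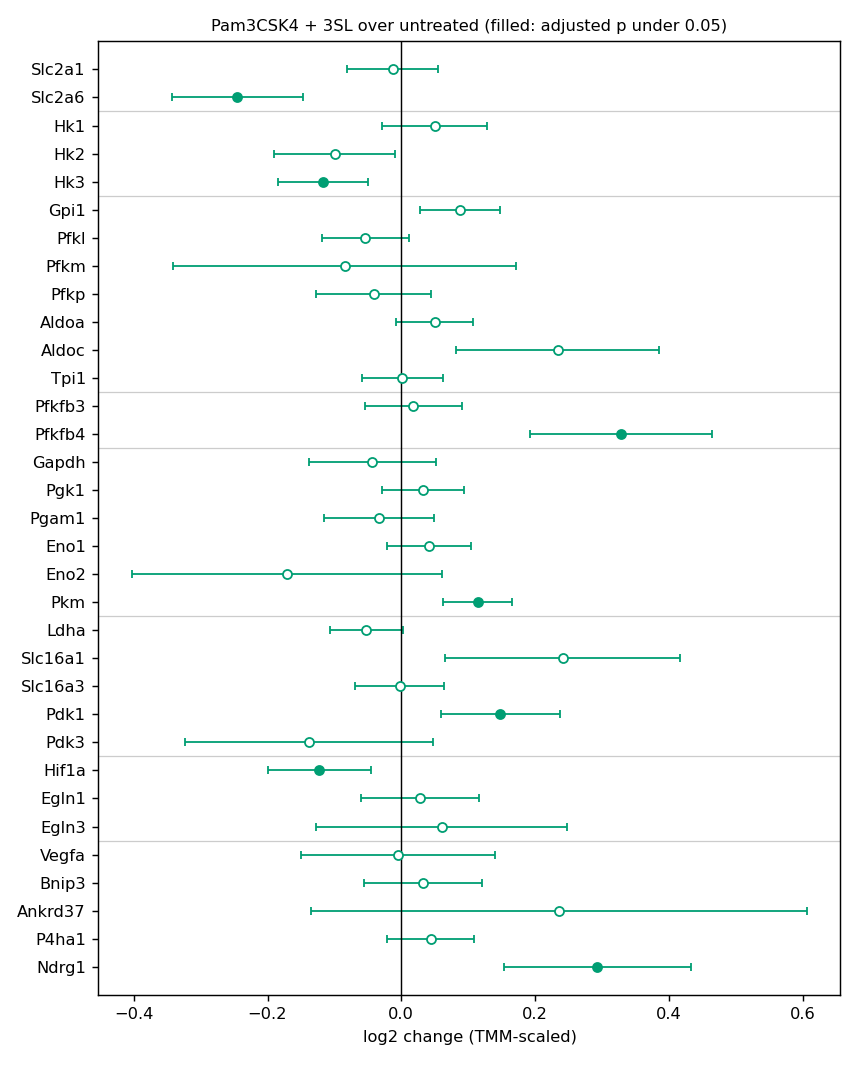
Log2 change of each of the 33 genes with its 95% interval (x axis, TMM-scaled) in the 3SL-labelled over untreated-labelled libraries; filled points passed the adjusted threshold of 0.05. The scale is narrow: all points lie between -0.25 and 0.33, and 7 are filled.

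Beyond the set, 97 other genes of these pathways were listed, of which 96 were in the table and 71 were tested. In the Pam3CSK4-labelled against untreated-labelled libraries 26 of the 71 (36.6%) were higher and 37 (52.1%) lower, beside 39.0% and 35.9% of all tested genes. In the 3SL-labelled against Pam3CSK4-labelled libraries 35 (49.3%) were higher and 23 (32.4%) lower, beside 34.7% and 36.8%. The median log2 change of the 71 was -0.16 in the first comparison and 0.09 in the second. Of 33 hypoxia-induced genes, 23 (69.7%) were lower and 8 (24.2%) higher in the first comparison, beside 35.9% and 39.0% of all tested genes. In the second 23 were higher and 8 lower, beside 34.7% and 36.8%. Of 19 tested genes of other glycolytic steps and branches, 12 (63.2%) were higher and 4 (21.1%: Bsg, Eno1b, Mif and Pgm1) lower in the first comparison, beside the same 39.0% and 35.9%. In the second 4 were higher and 11 (57.9%) lower, beside 34.7% and 36.8%. Among them, chosen after their values were seen, were Slc2a3 (GLUT3) at 1.35, Slc2a8 (GLUT8) at 1.65, Slc16a7 (MCT2) at 1.59 and Pfkfb2 at 1.04 on the log2 scale in the first comparison and -1.63, -1.58, -1.56 and -0.77 in the second, all called by edgeR.

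The oxygen sensing list had 5 of 6 tested genes lower in the Pam3CSK4-labelled against untreated-labelled libraries (Vhl, Arnt2, Egln2, Arnt and Hif1an) and Epas1 higher, beside 35.9% and 39.0% of all tested genes. Epas1 encodes HIF-2 alpha, the sister subunit of HIF-1 alpha. It stood at 4.92, 4.11 and 4.37 CPM in the 3SL-labelled, at 19.4, 21.6 and 21.99 CPM in the Pam3CSK4-labelled and at 3.86, 3.77 and 2.97 CPM in the untreated-labelled libraries, every Pam3CSK4-labelled library above all others. Its log2 change was 2.52 ± 0.11 (SE) in the first comparison and -2.25 ± 0.13 in the second (edgeR, adjusted p = 1.59e-17 and 7.76e-15), while Hif1a changed by -1.17 and 1.05. Zfp395 and Pdp1, a pyruvate dehydrogenase phosphatase, were the other largest rises in the Pam3CSK4-labelled against untreated-labelled libraries, at 2.53 and 2.16. Of 13 tested pyruvate entry genes 5 (38.5%) were higher and 5 lower there, near the 39.0% and 35.9% of all tested genes. Between the 3SL-labelled and the Pam3CSK4-labelled libraries 3 (23.1%) went each way, beside 34.7% higher and 36.8% lower.

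Nos2, Lox and Adm had the largest falls among the 71 genes in the Pam3CSK4-labelled against untreated-labelled libraries. Nos2, inducible nitric oxide synthase, averaged 96.3 ± 13.1 CPM in the 3SL-labelled, 0.25 ± 0.13 CPM in the Pam3CSK4-labelled and 155 ± 12.4 CPM in the untreated-labelled libraries. Lox, lysyl oxidase, averaged 380 ± 18.7, 1.30 ± 0.33 and 459 ± 14.7 CPM. Adm, the peptide adrenomedullin, averaged 6.52 ± 1.24, 0.13 ± 0.09 and 6.43 ± 0.11 CPM, with counts of 1, 4 and 1 in the Pam3CSK4-labelled libraries. Between the 3SL-labelled and the untreated-labelled libraries, 2 of the 71 genes were higher, Adpgk by 0.25 and P4hb by 0.13, and 5 were lower, which is 2.82% and 7.04%, near the 3.83% and 5.11% of all tested genes. Those included Nos2 by 0.69 and Lox by 0.27, and Fosl2 and Mpc1, which the naming rule did not select.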

How the data were processed

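Total RNA was taken up in TRIzol and the NEBNext Ultra kit was used for the libraries, per the labels' protocols. The labels do not state how messenger RNA was selected, whether strand was kept, or that replicate libraries come from separate cultures. All p-values thus reflect the spread between samples that may be technical replicates. The starting values were raw counts, deposited by the authors as a single table with 1 line per gene. HISAT2 2.1.0, featureCounts, Subread and the human build hg38 are named without a role per the submitters' processing notes, although the identifiers are mouse Ensembl identifiers. The annotation and strand setting of the counting are not given in the sources used here. Among 24 sample columns of the table, 15 belong to no sample described here and were not used.

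Symbols were matched for 21909 of 22001 identifiers, and 5264 genes had no count. Genes were kept with filterByExpr, which left 11469 (52.1%), scaled with TMM factors and fitted in edgeR 4.0.16 (R 4.3.3) with 1 mean per group over all 9 libraries. Quasi-likelihood tests were adjusted by the Benjamini-Hochberg method over all tested genes at 0.05. The biological coefficient of variation was 0.0365. Between replicates the chi-square of the counts was 1.83 to 2.91 times its degrees of freedom, above sampling noise. A gene with 3 counts stood at 0.0682 to 0.401 CPM, a limit that covers counting error only. Isoenzyme ratios were taken as log2 of (count + 0.5) within a library and compared with exact permutation tests. Lengths and overlaps came from GENCODE M21 on GRCm38 and were used only for description. The 33 genes, the gene lists and the naming rule, which takes the 3 largest called rises and falls of the other pathway genes above a mean log2 CPM of 2, were chosen with earlier results of these data known; some genes of these lists are not reported here. The fit was also run on simulated counts in which few genes changed. That setting differs from the comparisons with the Pam3CSK4-labelled libraries, where most tested genes were called, so it does not check the scaling. Alternatives were other size factors, library sizes alone, no low-count filter, DESeq2 1.42.0, a fit of 6 libraries, thinned counts, each library left out, and the code letter as a block.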

Additional observations from a re-analysis of the deposited data

How the results depend on the processing

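Counts of called genes in the set stayed within 1.5 times of those reported in the comparisons with the Pam3CSK4-labelled libraries under every alternative, except 6 genes higher in place of 3 in the Pam3CSK4-labelled against untreated-labelled libraries with library sizes alone. On that scale all tested genes had 6882 higher and 2380 lower there, and 2434 higher and 6393 lower in the 3SL-labelled against Pam3CSK4-labelled libraries. In the 3SL-labelled against untreated-labelled libraries it gave 8 genes of the set higher and 1 lower, and 787 tested genes higher. With only the 6 libraries of that comparison 1 gene of the set was lower. The cause of these shifts was not tested. Leaving out each library in turn gave 2 to 5 genes of the set higher and 1 to 4 lower, and 270 to 435 tested genes higher and 356 to 603 lower, in that comparison. The low counts came without B2, at 270 higher and 356 lower, and without A2plus, at 378 lower. DESeq2 gave 3 genes of the set higher and 2 lower there.

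Signs of log2 changes turned for these genes. In the Pam3CSK4-labelled against untreated-labelled libraries, with library sizes alone, Aldoc was 0.25, Vegfa 0.30 and Pkm 0.0060. Vegfa was 0.0026 without the low-count filter, 0.011 after thinning, 0.00058 without A2 and 0.0033 without D3, in a range from -0.026 to 0.0033 over all libraries left out. In the 3SL-labelled against Pam3CSK4-labelled libraries, with library sizes alone, Vegfa was -0.27, Pfkfb4 -0.053 and Pdk3 -0.00054. Vegfa was -0.018 without the filter, -0.0086 without D3 and -0.054 without A2plus, in a range from -0.054 to 0.084. The shares per kilobase rest on the annotated length: 51 of 60 moved by more than 1 SD over libraries with the longest transcript.

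The code letters A, B and C are shared by the untreated-labelled and 3SL-labelled libraries. Deviations from the group means correlated at -0.017, 0.042 and 0.0080 between libraries of the same letter, and at -0.033 to 0.023 between different letters. Counting noise enters these deviations, so values near 0 do not exclude pairs. The letters were not taken as pairs. With the letter as a replicate block over these 6 libraries, 4 genes of the set were higher and 3 lower, and 402 tested genes were higher and 549 lower. No block could be fitted with the Pam3CSK4-labelled libraries, which share no letter.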
